A study of Homo sapiens with 36 samples.

Results

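The E2F family comprises the transcription factors E2F1 to E2F8, and its members were taken as the 8 genes of those symbols out of 22260 genes measured on 36 microarrays. Every probe set (a short group of probes reported as 1 value) annotated to a single member was used, which gave 106 probe sets: 9 for E2F1, 10 for E2F2, 12 for E2F3, 10 for E2F4, 17 for E2F5, 13 for E2F6, 19 for E2F7 and 16 for E2F8. None of them was also annotated to another symbol. The study set SLFN11-knockout cells against SLFN11-proficient parent cells in prostate carcinoma cells (DU145) and in T-cell leukaemia cells (CCRF-CEM), both established human lines. SLFN11 is a Schlafen family protein that acts on stressed replication forks, and camptothecin traps topoisomerase I on DNA and so stalls those forks. In each line the 6 groups were knockout and parent cells as controls (treatment none), after 6 h and after 12 h of camptothecin at 250 nM, with 3 arrays per group. All groups grew in the same serum-supplemented RPMI medium, and DMSO is the vehicle the treatment protocol names. Each line contributed a single knockout, clone or pool is not stated, and the control harvest time is not given, so loss of SLFN11 and origin of the knockout cells cannot be told apart. Nothing in the labels says that the arrays of a group came from separate cultures, so p-values measure the spread between these arrays, which may be technical.

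E2F proteins bind DNA at the promoters of genes for DNA synthesis and cell cycle entry. E2F1, E2F2 and E2F3 activate transcription once cyclin-dependent kinases have released them from the retinoblastoma protein RB1. E2F4 and E2F5 act mainly as repressors with the pocket proteins RBL1 and RBL2, partly within the DREAM complex that silences cell cycle genes in resting cells. E2F6 works without pocket proteins, in a Polycomb complex, and E2F7 and E2F8 are atypical repressors that bind DNA without a DP partner and shut off E2F targets late in S phase, among them E2F1 itself. Several E2F genes are themselves E2F targets.

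The promoter windows of the activators, of E2F7 and of E2F4 are shown because they hold, or in E2F4 lack, 7-letter stretches of the kind that E2F proteins recognise. The sequences are from RefSeq (GRCh38.p14) and run from 250 bases before to 50 bases after the annotated start, 300 bases each. They are read 5′ to 3′ on the gene's strand, and capitals mark the 7-letter matches on either strand to TTGGCGC, to the variant TTGCCGC, to the variant TTCGCGC or to the variant TTCCCGC. E2F1 lies at chr20:33686336-33686635 on the minus strand, E2F2 at chr1:23531184-23531483 on the minus strand, and E2F3 at chr6:20401629-20401928 on the plus strand. E2F7 lies at chr12:77065520-77065819 on the minus strand and E2F4 at chr16:67191905-67192204 on the plus strand.
E2F1: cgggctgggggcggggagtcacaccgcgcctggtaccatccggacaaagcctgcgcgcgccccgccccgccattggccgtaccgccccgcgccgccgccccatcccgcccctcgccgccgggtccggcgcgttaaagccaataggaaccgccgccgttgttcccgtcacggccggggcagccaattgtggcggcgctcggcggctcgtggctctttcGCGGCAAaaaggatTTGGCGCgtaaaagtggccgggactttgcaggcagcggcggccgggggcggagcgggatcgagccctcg
E2F2: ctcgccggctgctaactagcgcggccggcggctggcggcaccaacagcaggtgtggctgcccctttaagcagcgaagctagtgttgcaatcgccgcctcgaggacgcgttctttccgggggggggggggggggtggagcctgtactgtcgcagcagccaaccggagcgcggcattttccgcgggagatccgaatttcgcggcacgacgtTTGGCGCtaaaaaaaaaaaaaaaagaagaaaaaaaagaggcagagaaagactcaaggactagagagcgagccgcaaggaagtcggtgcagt
E2F3: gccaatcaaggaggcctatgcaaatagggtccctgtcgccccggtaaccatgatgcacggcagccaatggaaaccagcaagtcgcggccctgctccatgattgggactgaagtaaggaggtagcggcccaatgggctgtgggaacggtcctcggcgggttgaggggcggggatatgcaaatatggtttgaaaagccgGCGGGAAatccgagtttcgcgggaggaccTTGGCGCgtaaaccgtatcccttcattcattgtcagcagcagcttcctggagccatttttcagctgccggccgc
E2F7: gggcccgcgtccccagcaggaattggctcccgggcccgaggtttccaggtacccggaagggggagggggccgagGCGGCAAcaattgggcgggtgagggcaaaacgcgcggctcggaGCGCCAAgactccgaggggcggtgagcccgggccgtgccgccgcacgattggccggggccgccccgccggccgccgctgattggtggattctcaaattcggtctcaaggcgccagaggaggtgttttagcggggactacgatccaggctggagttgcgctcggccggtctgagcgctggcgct
E2F4: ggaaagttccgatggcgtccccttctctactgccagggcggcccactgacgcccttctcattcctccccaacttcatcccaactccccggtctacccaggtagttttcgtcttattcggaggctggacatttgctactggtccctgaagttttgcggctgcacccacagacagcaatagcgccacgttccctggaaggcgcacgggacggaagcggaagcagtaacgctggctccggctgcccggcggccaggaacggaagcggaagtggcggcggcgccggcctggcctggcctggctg
E2F1 held 2 matches, which begin at positions -33 and -19 relative to the annotated start. E2F2 held 1, at -41. E2F3 held 2, at -53 and -24, and a second E2F3 window at chr6:20403364-20403663 held 0. E2F4 held 0. E2F7 held 2, at -176 and -133, and E2F6 (chr2:11466112-11466411, minus strand) held 1, past its start. These letters occurred in 13.0% of all 35116 windows of the same length and in 16.1% of the 22198 windows of protein-coding genes. With a further T before them, as 8-letter matches, E2F1 held 2, E2F2 held 1 and the first E2F3 window held 1. E2F4, E2F6 and E2F7 held 0 such matches, which occurred in 4.1% of the protein-coding windows. A match describes the letters and is not a measured binding site.

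The median log2 signal of an array ran from 4.78 to 4.86, replicate arrays correlated at 0.979 to 0.988, and no 2 arrays were identical. KRT18, an epithelial keratin, averaged 11.6 to 12.0 in the DU145 groups and 7.34 to 7.79 in the CCRF-CEM groups. CD3E, which T cells need for receptor signalling, averaged 6.37 to 6.88 in DU145 and 11.8 to 11.9 in CCRF-CEM. The CCRF-CEM knockout controls also had EPCAM, an epithelial adhesion molecule, at 9.02 ± 0.06, against 6.87 ± 0.58 in the parent controls (SD, n = 3 each). The other epithelial markers examined were not called there (limma adjusted p between 0.24 and 0.94). Their log2 differences, knockout minus parent, were 0.70 for KRT8, 0.08 for KRT18, -0.28 for KRT19 and -0.19 for CDH1. Of 11 SLFN11 probe sets, 3 were called lower and 2 higher in untreated knockout than in parent cells of DU145, and 1 lower and 0 higher in CCRF-CEM. Probe set 16843409 was lower in both lines, by a log2 change of -2.85 ± 0.48 in DU145 (SE, n = 3 per group, limma adjusted p = 0.0065) and of -1.07 ± 0.14 in CCRF-CEM (limma adjusted p = 0.0023). The brightest SLFN11 probe set was not lower, at 8.97 in knockout against 8.56 in parent controls of DU145 and 9.82 against 9.48 in CCRF-CEM. Where the knockout alters the gene is not given, so these probe sets do not check the labels on their own.

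Camptothecin raised E2F genes in both lines and both genotypes. A gene is represented by its brightest probe set, a change is the difference in mean log2 signal from the controls, and a gene was called at an adjusted p below 0.05 in the limma fit over all genes. In DU145 knockout cells 3 of the 8 members were called at 6 h, where 8.72% of all genes were, and 4 at 12 h, where 10.0% were. In DU145 parent cells 4 were called at 6 h (10.1% of all genes) and 3 at 12 h (7.69%). In CCRF-CEM knockout cells 2 were called at 6 h (6.44%) and 3 at 12 h (8.21%), and in CCRF-CEM parent cells 3 at 6 h (12.4%) and 4 at 12 h (16.8%). E2F7 was called higher in all 8 comparisons with control, E2F8 in 7 and E2F2 in 6. E2F5 supplied the 3 calls of a lower member. E2F1 was not called in any of the 8 comparisons by its brightest probe set, which did not move with several of its others. Those were called higher in some of the comparisons, as given below. These are bulk samples, in which fewer cells of a type and less RNA per cell cannot be told apart.

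Over the 106 probe sets, DU145 knockout cells had 23 called higher and 0 lower at 6 h, against 0.907% and 1.74% of all 352859 probe sets, and 28 higher and 1 lower at 12 h, against 1.29% and 1.99%. DU145 parent cells had 25 higher and 1 lower at 6 h (1.44% and 2.16% of all probe sets) and 36 higher and 0 lower at 12 h (0.878% and 1.70%). CCRF-CEM knockout cells had 14 higher and 0 lower at 6 h (0.477% and 1.25%) and 12 higher and 0 lower at 12 h (0.570% and 0.696%). CCRF-CEM parent cells had 18 higher and 0 lower at 6 h (2.22% and 1.87%), and 33 higher and 3 lower at 12 h (3.42% and 3.28%). Probe sets of 1 gene share its transcript and are not replicates.

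**Figure D1:**
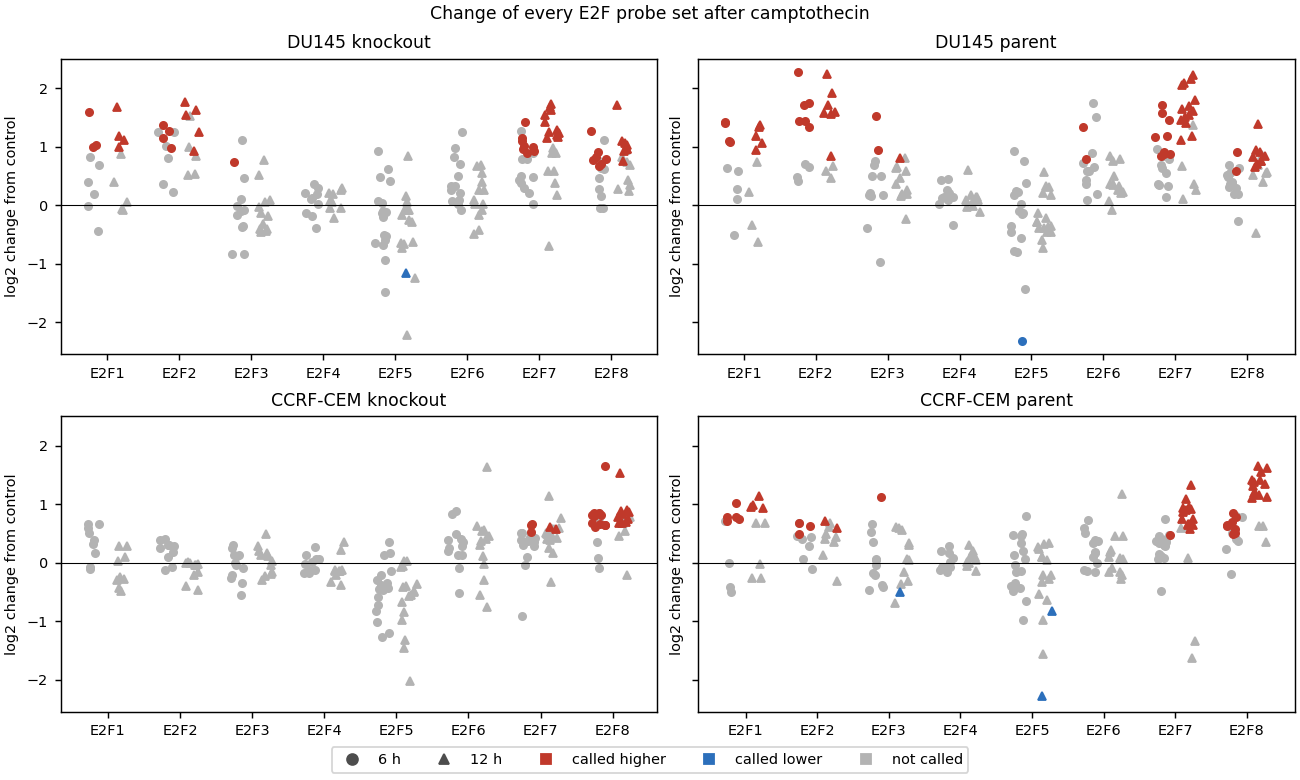
Log2 change from control of each of the 106 E2F probe sets (vertical axis) by member (horizontal axis) at 6 h (circles) and 12 h (triangles) of camptothecin, 1 panel per line and genotype, with n = 3 arrays per group; red and blue mark probe sets called higher and lower by limma. The probe sets of E2F7 and E2F8 called in each panel lie above 0, E2F4 has none called, and the called probe sets of E2F5 lie below 0.

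Among the activators, E2F1 read differently by probe set. Its brightest probe set, 16918450, stayed between 12.4 and 13.2 on all 36 arrays and was not called after camptothecin in any of the 8 comparisons, with log2 changes between -0.42 and 0.27. Of the other 8 probe sets, 3 were called higher at 6 h and 4 at 12 h in DU145 knockout cells, and 4 and 5 in DU145 parent cells. In CCRF-CEM none was called in knockout cells at 6 h or 12 h, while 5 at 6 h and 4 at 12 h were called higher in parent cells. The called changes ran from 0.71 to 1.68.

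The mean over all 9 E2F1 probe sets shows this per array. In DU145 knockout cells it was 7.29, 7.48 and 7.12 in the controls, 7.89, 7.92 and 7.83 at 6 h, and 7.94, 8.31 and 7.70 at 12 h. The DU145 parent arrays had 7.72, 7.50 and 7.29 in the controls, 8.20, 8.13 and 8.22 at 6 h, and 8.14, 8.31 and 8.03 at 12 h. Every treated DU145 array lay above every control array of its genotype. The log2 changes of this mean were 0.58 ± 0.14 at 6 h and 0.69 ± 0.14 at 12 h in knockout cells, and 0.68 ± 0.14 and 0.66 ± 0.14 in parent cells (SE, n = 3 per group, limma adjusted p between 0.0019 and 0.0076).

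In CCRF-CEM knockout cells the mean of the E2F1 probe sets was 7.88, 7.78 and 7.83 in the controls, 8.20, 8.23 and 8.09 at 6 h, and 7.90, 7.51 and 7.73 at 12 h. In CCRF-CEM parent cells it was 7.93, 7.93 and 7.99 in the controls, 8.45, 8.47 and 8.21 at 6 h, and 8.51, 8.34 and 8.60 at 12 h. The knockout arrays were all above control at 6 h and overlapped it at 12 h, whereas the parent arrays lay above control at both times. By this mean the knockout change was 0.35 ± 0.10 at 6 h (limma adjusted p = 0.042), but -0.12 ± 0.10 at 12 h (limma adjusted p = 0.57). In parent cells it was 0.43 ± 0.10 at 6 h (limma adjusted p = 0.0075) and 0.53 ± 0.10 (adjusted p = 0.00099). From 6 h to 12 h the knockout mean fell by 0.46 on the log2 scale (limma adjusted p = 0.027).

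**Figure D2:**
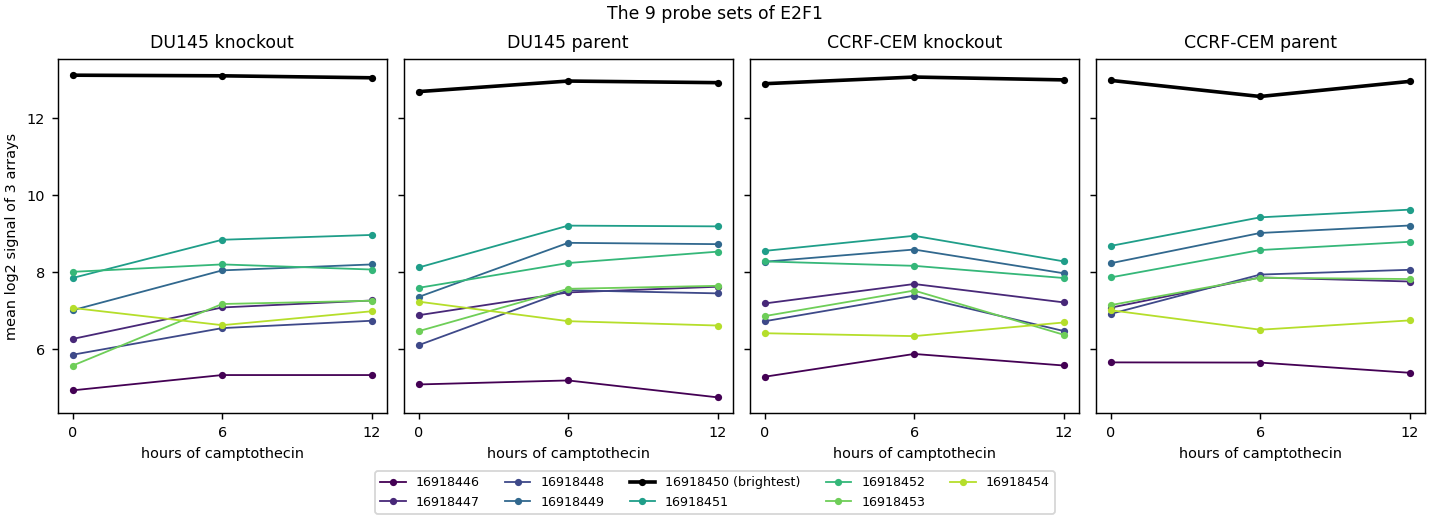
Mean log2 signal of 3 arrays (vertical axis) against hours of camptothecin, 0 being the control (horizontal axis), for the 9 E2F1 probe sets, with 1 panel per line and genotype. Probe set 16918450 (black) lies above 12 throughout, and most of the others rise with treatment except in CCRF-CEM knockout cells at 12 h.

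By brightest probe sets E2F2 showed the largest changes of the activators. In DU145 knockout cells its log2 signal was 6.75, 7.04 and 6.72 in the controls, 7.85, 8.13 and 7.97 at 6 h, and 8.17, 7.83 and 8.27 at 12 h. Parent cells of DU145 had 7.24, 6.40 and 7.17, then 8.23, 8.47 and 8.44, then 8.76, 8.46 and 8.73. No treated array overlapped a control array in either genotype, and the arrays at 6 h and 12 h overlapped each other. The rises were 1.15 ± 0.20 at 6 h and 1.25 ± 0.20 at 12 h in knockout cells (limma adjusted p = 0.0024 and 0.0011), and 1.44 ± 0.20 and 1.71 ± 0.20 in parent cells (adjusted p = 0.00024 and 8.0e-05). Of its 10 probe sets, 4 and 5 were called higher in knockout cells and 6 and 7 in parent cells.

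CCRF-CEM knockout cells had E2F2 at 9.39, 9.20 and 9.63 in the controls, 9.75, 9.75 and 9.48 at 6 h, and 9.35, 9.30 and 9.55 at 12 h. CCRF-CEM parent cells had it at 9.37, 9.41 and 9.57, then 10.14, 10.10 and 10.01, then 9.85, 10.13 and 10.17. The knockout groups overlapped, and the treated parent arrays lay above all parent controls. The knockout changes were 0.25 ± 0.13 at 6 h and -0.01 ± 0.13 at 12 h (SE, limma adjusted p = 0.30 and 0.99), and the parent rises were 0.63 ± 0.13 and 0.60 ± 0.13 (adjusted p = 0.0043 and 0.0045). In order of group means every DU145 group lay below every CCRF-CEM group, with the DU145 controls lowest and the treated CCRF-CEM parent groups highest. Among the 4 treated DU145 groups, and again among the 3 CCRF-CEM knockout groups and the parent controls, neighbours overlapped.

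E2F3 is measured here by 12 probe sets that together gave few calls. Its brightest probe set was not called in any comparison with control, with 95% intervals as wide as -0.51 to 0.93 in DU145 parent cells at 6 h. Knockout cells of DU145 had 17005236 called higher at 6 h by 0.73. In DU145 parent cells 17005235 and 17005236 were called higher at 6 h, by 1.52 and 0.95, and 17005239 at 12 h by 0.81. In CCRF-CEM none was called in knockout cells, and in parent cells 17005244 was called higher at 6 h by 1.12 and 17005246 lower at 12 h by -0.50. By the mean of all 12 the change in DU145 parent cells at 12 h was 0.41 ± 0.12 (limma adjusted p = 0.033). These probe sets are named because they were the ones called.

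**Figure D3:**
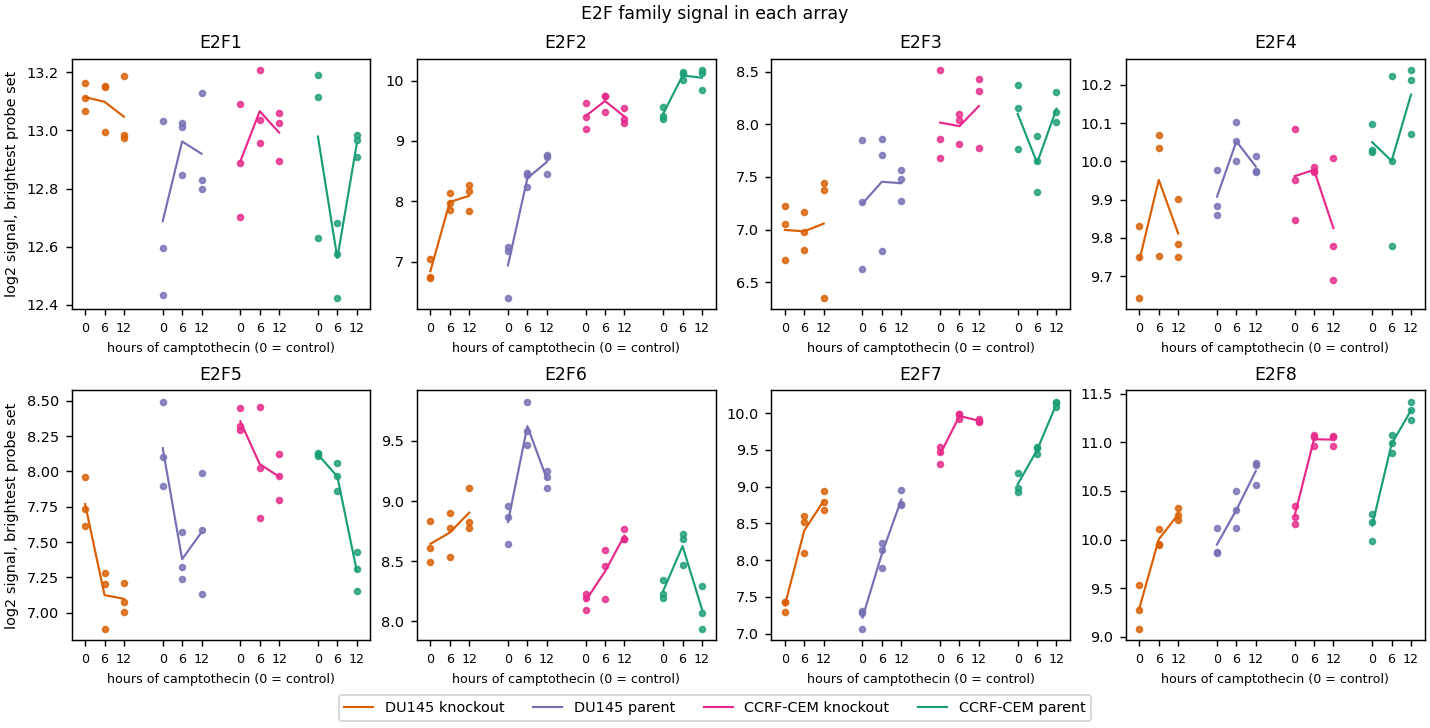
Log2 signal of the brightest probe set of each member on every array (vertical axes, 1 point per array, scales differ by member) by hours of camptothecin, 0 being the control (horizontal axis), for knockout and parent cells of DU145 and CCRF-CEM; lines join the means of 3 arrays. E2F7 and E2F8 rise with treatment in all 4 sets, E2F2 in 3 of them, and E2F4 varies within 9.64 to 10.24.

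E2F4 and E2F5 are the classical repressors. E2F4, the most widely used partner of RBL1 and RBL2, ranged from 9.64 to 10.24 over all 36 arrays by its brightest probe set, and neither it nor any of its 10 probe sets was called after camptothecin. Its changes in the 8 comparisons lay between -0.14 and 0.21, and the widest 95% intervals reached -0.39 and 0.42. E2F5, its close relative, was called lower by its brightest probe set in 3 of the 8 comparisons with control. DU145 knockout cells had 7.74, 7.61 and 7.96 in the controls, 6.89, 7.29 and 7.21 at 6 h, and 7.08, 7.01 and 7.21 at 12 h. DU145 parent cells had 7.90, 8.49 and 8.11, then 7.24, 7.32 and 7.58, then 7.99, 7.13 and 7.59. All treated arrays were below their controls except those of parent cells at 12 h, which overlapped them. The knockout change of -0.67 ± 0.20 at 12 h passed (limma adjusted p = 0.048) and that of -0.64 ± 0.20 at 6 h did not (adjusted p = 0.063), while the parent change of -0.79 ± 0.20 at 6 h passed (adjusted p = 0.022) and that of -0.59 ± 0.20 at 12 h did not (adjusted p = 0.094). Leaving out any 1 of the 6 arrays ended the knockout call (limma adjusted p 0.067 to 0.17). The parent call at 6 h ended without control replicate 2 or treated replicates 1 or 2 (adjusted p 0.068 to 0.099). Set to equal housekeeping medians, the knockout changes were -0.70 at 6 h and -0.64 at 12 h (limma adjusted p = 0.046 and 0.056), so that the 6 h change passed and the 12 h change did not. Averaged over all 17 probe sets, the knockout change at 12 h was -0.42 ± 0.13 (limma adjusted p = 0.033) and the parent change at 6 h was -0.26 ± 0.13, which did not pass (adjusted p = 0.23).

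CCRF-CEM knockout cells had E2F5 at 8.29, 8.32 and 8.45 in the controls, 8.46, 8.03 and 7.67 at 6 h, and 7.80, 7.96 and 8.13 at 12 h. CCRF-CEM parent cells had it at 8.11, 8.12 and 8.13, then 7.97, 7.86 and 8.06, then 7.31, 7.43 and 7.15. The parent arrays at 12 h lay below all others of the line. The knockout change at 12 h was -0.39 ± 0.16 (SE, limma adjusted p = 0.14), and the parent change was -0.82 ± 0.16 (adjusted p = 0.0018). With the arrays set to equal housekeeping medians the parent change was -0.47 (adjusted p = 0.071), because that scaling moved the median change of all genes in this comparison to 0.35. Averaged over the 17 probe sets, E2F5 was called lower in CCRF-CEM knockout cells at both times, by -0.45 ± 0.11 and -0.63 ± 0.11 (limma adjusted p = 0.014 and 0.0015), and in parent cells at 12 h by -0.38 ± 0.11 (adjusted p = 0.020). By this average the control means were 5.62 in knockout and 5.06 in parent cells, and the knockout means at 6 h and 12 h were 5.16 and 4.99. The part of that starting level in the changes was not tested. Of the 17 probe sets at most 2 were called in any comparison with control. For 1 of them every group mean, and for 8 some group means, lay below 3.04, the highest lower quartile of any array.

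Among the repressors, E2F6 was called higher by its brightest probe set in parent DU145 cells at 6 h and at 12 h in the CCRF-CEM knockout. In DU145 knockout cells its signal was 8.49, 8.61 and 8.83 in the controls, 8.54, 8.78 and 8.90 at 6 h, and 8.78, 8.83 and 9.11 at 12 h. The parent arrays of DU145 had 8.65, 8.87 and 8.96, then 9.82, 9.58 and 9.46, then 9.25, 9.20 and 9.11. The knockout groups overlapped, and the parent arrays were highest at 6 h and still above control at 12 h. The knockout changes were 0.09 ± 0.14 at 6 h and 0.26 ± 0.14 at 12 h (limma adjusted p = 0.79 and 0.31), and in parent cells the change at 6 h was 0.80 ± 0.14 (adjusted p = 0.0020) and that at 12 h was 0.36 ± 0.14 (adjusted p = 0.15). By the mean of its 13 probe sets E2F6 rose in knockout cells at 6 h by 0.42 ± 0.12 (limma adjusted p = 0.0205), and in parent cells at both times, by 0.76 ± 0.12 and 0.39 ± 0.12 (adjusted p = 0.00015 and 0.038). Of the 13, 12 had a positive change in knockout cells at 6 h (median 0.33) and 0 were called. In parent cells 2 were called higher at 6 h and 0 at 12 h. For 2 of the 13 some group means lay below 3.04.

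In CCRF-CEM the E2F6 signal of knockout cells was 8.09, 8.19 and 8.23 in the controls, 8.46, 8.19 and 8.60 at 6 h, and 8.77, 8.68 and 8.68 at 12 h. In parent cells it was 8.19, 8.34 and 8.23, then 8.73, 8.47 and 8.68, then 8.30, 7.94 and 8.07. The knockout arrays at 12 h lay above their controls, and the parent arrays did so at 6 h only. The knockout rise at 12 h was 0.54 ± 0.12 (limma adjusted p = 0.013, and 0.058 without knockout control replicate 1), and the parent values were 0.37 ± 0.12 and -0.15 ± 0.12 (adjusted p = 0.058 and 0.48). The knockout rise at 12 h was 0.43 with equal housekeeping medians (limma adjusted p = 0.082) and 0.26 ± 0.15 by the mean of the 13 probe sets (adjusted p = 0.32), neither of them called. None of the 13 E2F6 probe sets was called in the fit over all probe sets of this line.

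E2F7 rose in every comparison with control. DU145 knockout cells had 7.30, 7.43 and 7.43 in the controls, 8.52, 8.60 and 8.09 at 6 h, and 8.68, 8.79 and 8.94 at 12 h. DU145 parent cells had 7.30, 7.29 and 7.07, then 7.89, 8.14 and 8.23, then 8.75, 8.96 and 8.77. In both genotypes each time point lay wholly above the one before it. The changes were 1.02 ± 0.14 and 1.42 ± 0.14 in knockout cells and 0.87 ± 0.14 and 1.61 ± 0.14 in parent cells (SE, limma adjusted p between 7.9e-06 and 0.0010). From 6 h to 12 h the parent change was 0.74 ± 0.14 (adjusted p = 0.034), the single member of 8 called in that comparison, where 0.454% of all genes were. That call ended without any 1 of the 6 arrays (limma adjusted p 0.0605 to 0.144). In knockout cells the change from 6 h to 12 h was 0.40 ± 0.14 (adjusted p = 0.29) and 0 of 8 members were called, against 0.386% of all genes. Of the 19 E2F7 probe sets, 8 and 11 were called higher in knockout cells and 9 and 14 in parent cells.

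In CCRF-CEM knockout cells E2F7 was at 9.54, 9.31 and 9.47 in the controls, 9.98, 9.98 and 9.92 at 6 h, and 9.88, 9.90 and 9.92 at 12 h. In CCRF-CEM parent cells it was at 8.93, 9.19 and 8.98, then 9.52, 9.44 and 9.54, then 10.09, 10.15 and 10.14. The parent arrays stepped up at each time without overlap, and the knockout arrays were above control at both times. The knockout changes were 0.52 ± 0.09 and 0.46 ± 0.09 (limma adjusted p = 0.0031 and 0.0066), and the parent changes 0.46 ± 0.09 and 1.09 ± 0.09 (adjusted p = 0.0029 and 1.2e-06). With equal housekeeping medians the knockout values at 6 h and 12 h and the parent value at 6 h were 0.43, 0.34 and 0.42 and were not called (limma adjusted p between 0.062 and 0.16). Of the 19 probe sets, 3 and 2 were called higher in knockout cells and 1 and 14 in parent cells.

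E2F8, the partner of E2F7 in repressing E2F1, was also raised. In DU145 knockout cells it had 9.08, 9.27 and 9.53 in the controls, 10.11, 9.95 and 9.95 at 6 h, and 10.33, 10.20 and 10.25 at 12 h. Parent cells had 9.87, 9.86 and 10.11, then 10.12, 10.50 and 10.30, then 10.76, 10.79 and 10.56. Treated arrays lay above the controls of their genotype throughout. The knockout changes were 0.71 ± 0.13 and 0.97 ± 0.13 (limma adjusted p = 0.0039 and 0.00043), and the parent changes 0.36 ± 0.13 and 0.76 ± 0.13 (adjusted p = 0.11 and 0.0023). Control means of E2F8 were 9.29 in knockout and 9.95 in parent cells. Treated means at 6 h and 12 h were 10.00 and 10.26 in knockout and 10.31 and 10.70 in parent cells. The part of that starting level in the changes was not tested. The parent change at 6 h passed by the mean of all its probe sets, at 0.41 ± 0.11 (limma adjusted p = 0.015). Of its 16 probe sets, 7 and 8 were called higher in knockout cells and 2 and 9 in parent cells.

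CCRF-CEM knockout cells had E2F8 at 10.35, 10.23 and 10.16 in the controls, 10.97, 11.05 and 11.08 at 6 h, and 11.05, 10.97 and 11.07 at 12 h. CCRF-CEM parent cells had it at 10.18, 9.99 and 10.26, then 11.08, 10.89 and 10.99, then 11.34, 11.42 and 11.23. The knockout arrays reached the same range at both times, and the parent arrays at 12 h lay above those at 6 h. The changes were 0.79 ± 0.10 at both times in knockout cells and 0.84 ± 0.10 and 1.19 ± 0.10 in parent cells (SE, limma adjusted p between 1.1e-06 and 0.00028). Of the 16 probe sets, 11 and 10 were called higher in knockout cells and 8 and 13 in parent cells. At 12 h 5 E2F8 and 2 E2F7 probe sets were called higher in all 4 sets of cells, and no probe set of another member was.

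From 6 h to 12 h in CCRF-CEM, 0 of 8 members were called in knockout cells (0.517% of all genes) and 4 in parent cells (5.78%). In parent cells E2F7 rose by a log2 change of 0.63 ± 0.09 (limma adjusted p = 0.0026) and E2F8 by 0.34 ± 0.10 (adjusted p = 0.0496), while E2F5 changed by -0.67 ± 0.16 and E2F6 by -0.53 ± 0.12 (adjusted p = 0.025 and 0.022). The E2F7 call held without each of the 6 arrays, and the E2F8 call ended without any 1 of them (adjusted p 0.066 to 0.16). The E2F8 call also ended with a replicate block, with all 36 arrays in 1 fit and with cyclic loess (limma adjusted p 0.059 to 0.071). The E2F5 call ended without any array but treated replicate 2 at 12 h (adjusted p 0.0505 to 0.0893). The E2F6 call ended without replicates 1 or 3 at 6 h or replicates 2 or 3 at 12 h (adjusted p 0.066 to 0.085). In CCRF-CEM knockout cells the values ran from -0.26 for E2F2 to 0.30 for E2F6. By the mean of all probe sets the parent change of E2F8 was 0.65 ± 0.08 (limma adjusted p = 0.00017), and those of E2F5, E2F6 and E2F7 were not called. Of the 19 E2F7 probe sets, 16 had a positive parent change, with a median of 0.51, and 1 was called. With equal housekeeping medians E2F5 and E2F6 were at -0.28 and -0.14 in parent cells and were not called (limma adjusted p = 0.25 and 0.42). E2F1, E2F3 and E2F4 were then called higher, by 0.78, 0.90 and 0.56 (adjusted p of 0.013 or less). That scaling moved the median of all genes in this comparison to 0.40.

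Whether the response differed between parent and knockout cells is asked by the genotype difference, computed as parent change minus knockout change. In DU145 it was called for 0 of 8 members at 6 h, where 1.11% of all genes were called, and for 0 at 12 h (1.13%). At an unadjusted p below 0.05 it was E2F6 alone at 6 h, at 0.70 ± 0.20 (limma adjusted p = 0.12, 95% interval 0.28 to 1.13), and none at 12 h. At 12 h the intervals were -0.13 to 1.05 for E2F2, -0.24 to 0.61 for E2F7 and -0.61 to 0.19 for E2F8. In 1 fit of all 36 arrays the E2F6 difference at 6 h was called (limma adjusted p = 0.035). By the mean of its probe sets it was not called, and 0 of its 13 probe sets were called for it.

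In CCRF-CEM 0 of 8 members were called for the genotype difference at 6 h (2.23% of all genes) and 2 at 12 h (7.91%). At 12 h E2F7 had changed by 0.46 in knockout and by 1.09 in parent cells, a difference of 0.64 ± 0.13 (limma adjusted p = 0.0069). Its control means were 9.44 in knockout and 9.03 in parent cells, and its 12 h means 9.90 and 10.13. The part of that starting level in the difference was not tested. E2F6 had changed by 0.54 in knockout and by -0.15 in parent cells, a difference of -0.70 ± 0.17 (limma adjusted p = 0.022). The E2F6 call ended without parent control replicate 2, parent replicate 2 at 12 h or knockout control replicate 1 (adjusted p = 0.055 each). E2F2 differed by 0.60 ± 0.18 and E2F8 by 0.40 ± 0.14 without passing (adjusted p = 0.057 and 0.090).

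Those 2 calls rest on single probe sets. By the mean of all probe sets the difference was 0.05 ± 0.13 for E2F7 and -0.12 ± 0.21 for E2F6 (limma adjusted p = 0.89 and 0.82), and in the fit over all probe sets 0 of the 19 of E2F7 and 0 of the 13 of E2F6 were called. The difference was positive for 15 of the 19 (median 0.24) and for 5 of the 13 (median -0.29). Among the E2F7 probe sets that went the other way were 16767864 and 16767867. From control to 12 h they went from 4.37 to 2.75 and from 5.36 to 4.01 in parent cells. In knockout cells they went from 4.84 to 5.42 and from 4.81 to 5.95. The E2F6 difference was -0.23 with equal housekeeping medians and was not called (limma adjusted p = 0.37). By the same mean the difference was 0.65 ± 0.15 for E2F1, 0.54 ± 0.15 for E2F2 and 0.47 ± 0.11 for E2F8 (adjusted p = 0.0094, 0.035 and 0.014). Probe sets called for this difference numbered 4 of 9 for E2F1, between 1.21 and 1.40, 1 of 10 for E2F2, at 0.76, and 2 of 16 for E2F8, at 0.73 and 0.87, against 0.674% of all probe sets called in that direction. All 7 were higher in parent cells. The E2F1 probe sets 16918448, 16918449, 16918451 and 16918452 were the 4 called.

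**Figure D4:**
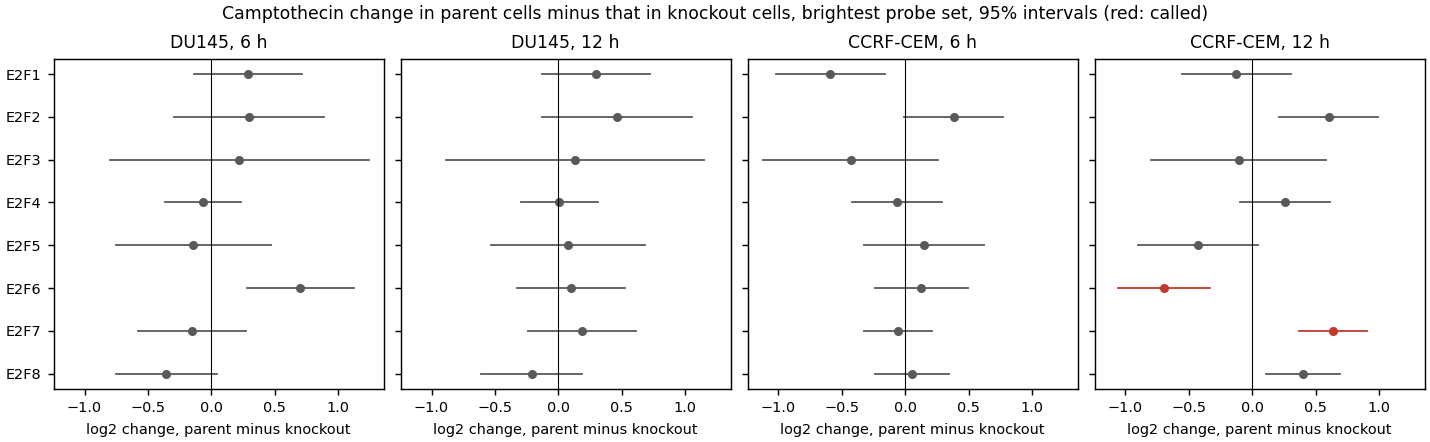
Difference between the genotypes in the camptothecin change of each member, parent minus knockout (horizontal axis, log2, brightest probe set) for DU145 and CCRF-CEM at 6 h and 12 h; points are limma estimates, bars 95% intervals, n = 3 arrays per group, and red marks members called. E2F6 and E2F7 in CCRF-CEM at 12 h are the 2 called.

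Before treatment 1 of 8 members was called between the genotypes in each line by brightest probe sets. In DU145 E2F8 was the 1 of 8 members called, where 11.4% of all genes were, at a mean of 9.29 ± 0.22 in knockout against 9.95 ± 0.14 in parent controls (SD, n = 3 each). Its log2 difference was -0.66 ± 0.13 (SE, limma adjusted p = 0.0062), all knockout arrays lay below all parent arrays, and 6 of its 16 probe sets were called lower, against 0.973% of all probe sets called lower. By the mean of all probe sets E2F2 was also lower, by -0.50 ± 0.12 (limma adjusted p = 0.0087). In CCRF-CEM E2F7 was the 1 member called (1.51% of all genes), at 9.44 ± 0.12 in knockout against 9.03 ± 0.14 in parent controls, a difference of 0.41 ± 0.09 (limma adjusted p = 0.034). That call ended without replicate 1 or 3 of either group (adjusted p 0.12 to 0.154), and by the mean of its probe sets the difference was 0.21 ± 0.09 (adjusted p = 0.32). By the same mean E2F5 was higher in CCRF-CEM knockout than in parent controls, by 0.55 ± 0.11 (limma adjusted p = 0.0066). The difference was positive for 15 of its 17 probe sets, with a median of 0.39, and 0 were called. For 8 of the 17 some group means lay below 3.04.

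Between the lines, DU145 minus CCRF-CEM, 6 of 8 members were called among knockout controls (43.6% of all genes) and 4 among parent controls (37.1%). E2F2 was lower in DU145 by -2.57 ± 0.17 in knockout and -2.51 ± 0.17 in parent controls, and E2F7 by -2.05 ± 0.11 and -1.82 ± 0.11 (SE, limma adjusted p of 4.7e-13 or less). Of 10 E2F2 probe sets 9, and of 19 E2F7 probe sets 18, were called lower in both comparisons. E2F8 was lower in DU145 knockout controls by -0.95 ± 0.11 (adjusted p = 3.8e-08) and was not called among parent controls, at -0.20 ± 0.11, but was lower there by the mean of its probe sets, at -0.45 ± 0.09 (adjusted p = 0.00013). E2F6 was higher in DU145, by 0.47 ± 0.13 and 0.57 ± 0.13 (adjusted p = 0.0034 and 0.00059). E2F3 was lower by -1.02 ± 0.30 and -0.85 ± 0.30 (adjusted p = 0.0064 and 0.025), calls that ended in knockout controls without CCRF-CEM replicate 2 (adjusted p = 0.061) and in parent controls without replicates 2 or 3 of either line (0.052 to 0.20). E2F5 was lower in knockout controls by -0.58 ± 0.18 (limma adjusted p = 0.010, and 0.0515 without DU145 replicate 2). With equal housekeeping medians the E2F3 and E2F5 calls ended (adjusted p between 0.062 and 0.40), and the E2F6 call in knockout controls ended by the mean of its probe sets (0.23 ± 0.14, adjusted p = 0.17).

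The lines also differed in how far E2F2 and E2F7 moved. In knockout cells E2F2 rose more in DU145 at 6 h, by 0.90 ± 0.24, and at 12 h, by 1.26 ± 0.24, and E2F7 at 12 h by 0.96 ± 0.16 (SE, limma adjusted p = 0.043, 0.0021 and 0.00064). In parent cells E2F2 rose more in DU145 by 0.81 ± 0.24 at 6 h and by 1.11 ± 0.24 at 12 h (adjusted p = 0.043 and 0.0021), and E2F7 by 0.51 ± 0.16 at 12 h (adjusted p = 0.039). The brightest E2F1 probe set gave a difference of 0.69 ± 0.20 in parent cells at 6 h (limma adjusted p = 0.039), where it moved by 0.27 in DU145 and by -0.42 in CCRF-CEM, and the mean of its probe sets gave 0.25 ± 0.18 (adjusted p = 0.45). Called were 1 of 8 members for knockout cells at 6 h (2.07% of all genes) and 2 at 12 h (5.58%), and 2 for parent cells at 6 h (5.28%) and 2 at 12 h (10.5%). The genotype difference itself differed between the lines for 0 of 8 members at 6 h (0.530%) and at 12 h (4.78%). With a replicate block the E2F2 calls at 6 h ended, in knockout and in parent cells (limma adjusted p = 0.0545 and 0.053). Cyclic loess ended that in parent cells (adjusted p = 0.068). With equal housekeeping medians the calls at 6 h and that of E2F7 in parent cells at 12 h also ended (limma adjusted p between 0.062 and 0.79), the last at a difference of 0.08. Without 1 array the calls at 6 h, and that of E2F7 in parent cells at 12 h, ended in 6 to 10 of 12 cases each (adjusted p up to 0.13), and those of E2F2 at 12 h and of E2F7 in knockout cells held in all 12.

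Over the 12 groups, with each line's mean removed, the genes whose means most resembled E2F7 were TMX4, HMCES and LIG1, at Pearson r of 0.969, 0.942 and 0.932. HMCES shields abasic sites in DNA and LIG1 joins Okazaki fragments. For E2F8 they were POLD3, EXO1 and PARP2 (0.964, 0.956 and 0.951), a polymerase delta subunit, an exonuclease of DNA repair and a poly(ADP-ribose) polymerase. For E2F2 they were XRCC3, DEDD2 and POLR2C (0.947, 0.932 and 0.931), and for E2F5 PPIAL4E, PAWR and PSMD14 (0.951, 0.928 and 0.926). These values describe likeness over 12 group means that share arrays and treatment.

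The genes that E2F proteins are known to control were examined through lists. Of 38 measured E2F targets of the G1/S transition and replication, 15 were called higher and 1 lower in DU145 knockout cells at 6 h, where 5.32% and 3.39% of all genes were, and 28 and 1 at 12 h (6.31% and 3.72%). DU145 parent cells had 17 higher and 1 lower at 6 h (5.67% and 4.42% of all genes), and 24 and 0 at 12 h (3.80% and 3.89%). CCRF-CEM knockout cells had 16 higher and 0 lower at 6 h (3.52% and 2.92%), and 14 and 0 at 12 h (5.40% and 2.81%). CCRF-CEM parent cells had 10 higher and 0 lower at 6 h (7.36% and 5.06%), and 14 and 1 at 12 h (9.51% and 7.30%). The median change of the list was 0.35 and 0.61 in DU145 knockout, 0.35 and 0.51 in DU145 parent, 0.35 and 0.27 in CCRF-CEM knockout and 0.31 and 0.25 in CCRF-CEM parent cells, against medians of all genes between -0.016 and 0.040.

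In DU145 cyclin E1, which activates CDK2 at S phase entry, had the largest change of the list in each comparison with control. CCNE1 rose by 1.12 ± 0.20 and 1.93 ± 0.20 in DU145 knockout cells and by 1.00 ± 0.20 and 1.54 ± 0.20 in parent cells at 6 h and 12 h (SE, limma adjusted p between 3.6e-05 and 0.0044). In CCRF-CEM CCNE1 rose by 1.09 ± 0.15 and 0.89 ± 0.15 in knockout cells, and by 0.60 ± 0.15 in parent cells at 12 h (limma adjusted p = 0.00070, 0.0029 and 0.013). The licensing factor CDC6 rose by 0.86 ± 0.10 and 1.03 ± 0.10 in DU145 parent cells, and the flap endonuclease FEN1 by 0.92 ± 0.09 and 1.04 ± 0.09 in DU145 knockout cells (adjusted p of 5.7e-05 or less). The other targets called lower, named after their values were seen, were POLA1, a subunit of DNA polymerase alpha, in DU145 knockout cells at both times, and GINS1 of the replicative helicase in DU145 parent cells at 6 h. In CCRF-CEM parent cells at 12 h UNG, the uracil DNA glycosylase, was lower, at -0.63 ± 0.12 (limma adjusted p = 0.0017).

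Counts of this list moved when 1 array was left out. In DU145 parent cells at 6 h it was 9 higher without control replicate 1 or treated replicate 3. CCRF-CEM counts of higher targets were 8 or 9 without knockout control replicates 1 or 3 or treated replicates 1 or 3 at 6 h, 9 without knockout control replicate 1 or treated replicates 2 or 3 at 12 h, and 8 or 9 without parent control replicate 1 or any treated replicate at 12 h. With equal housekeeping medians CCRF-CEM counts were 6 and 4 higher in knockout cells and 5 and 30 in parent cells. DU145 counts under that scaling were 14 and 28 in knockout cells and 13 and 24 in parent cells. The counts at 6 h by the mean of all probe sets were 25 in DU145 knockout and 17 in CCRF-CEM parent cells, and with cyclic loess the count in CCRF-CEM knockout cells at 12 h was 8.

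The G2/M genes held by DREAM and later driven by MYB-FOXM1, 22 in number, went the other way. Called lower were 14 and 14 in DU145 knockout cells, 14 and 11 in DU145 parent cells, 13 and 6 in knockout and 16 and 14 in parent cells of CCRF-CEM at 6 h and 12 h, and 0 were called higher in any of these. The shares of all genes called lower in the same comparisons were 3.39% and 3.72%, 4.42% and 3.89%, 2.92% and 2.81%, and 5.06% and 7.30%. PLK1, the mitotic kinase, fell by -1.05 ± 0.12 and -1.26 ± 0.12 in DU145 parent cells, by -1.18 ± 0.10 and -0.62 ± 0.10 in CCRF-CEM knockout cells, and by -1.72 ± 0.10 and -1.26 ± 0.10 in CCRF-CEM parent cells (SE, limma adjusted p of 0.0019 or less). CCNB1, cyclin B1, fell by -1.19 ± 0.11 in DU145 knockout cells at 12 h (adjusted p = 2.3e-05). With equal housekeeping medians CCRF-CEM parent cells at 12 h had 5 lower and 4 higher. DU145 knockout cells at 6 h had 6 or 9 lower without treated replicate 1 or control replicate 3, and CCRF-CEM knockout cells at 12 h had 2 or 3 without treated replicate 1 or control replicates 1 or 3.

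**Figure D5:**
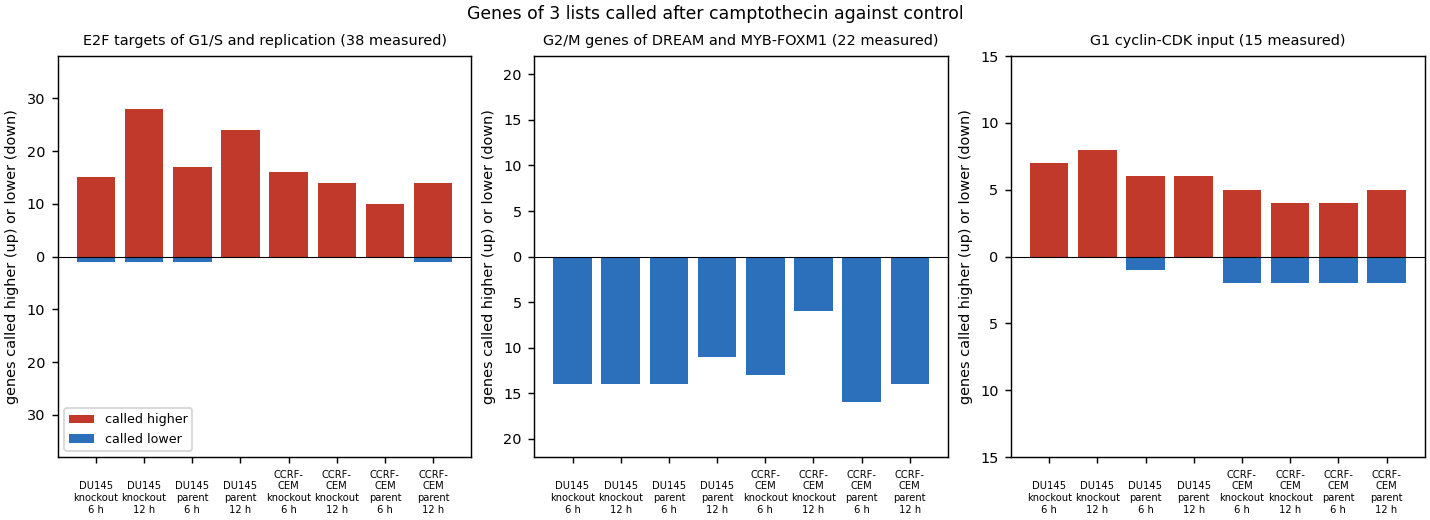
Number of genes called higher (red, upward) and lower (blue, downward) after camptothecin against control by limma, for 3 lists of genes up or downstream of E2F proteins, in knockout and parent cells of DU145 and CCRF-CEM at 6 h and 12 h. G1/S targets are mostly called higher, from 10 to 28 of 38, and no G2/M gene is called higher in any bar. CCNE1, CCNE2 and CDC25A count both as G1/S targets and as G1 cyclin-CDK input.

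Among the inputs, 15 genes of the G1 cyclins, their kinases and inhibitors had 7 and 8 called higher and 0 lower in DU145 knockout cells, 6 and 6 higher and 1 and 0 lower in DU145 parent cells, 5 and 4 higher and 2 and 2 lower in CCRF-CEM knockout cells, and 4 and 5 higher and 2 and 2 lower in CCRF-CEM parent cells. Beside these counts, and those of the smaller lists that follow, 3.52% to 9.51% of all genes were called higher and 2.81% to 7.30% lower, as given for each comparison above. CCNE1, CCNE2 and CDC25A are among the 15 and also on the list of G1/S targets, and count in each, so the counts of these lists are not separate. MYBL2 is likewise both a listed target and a listed MuvB partner. CCRF-CEM knockout cells had 3 and 2 of the 15 higher with equal housekeeping medians. CDKN1A encodes the p21 inhibitor that acts against release of E2F from RB1. Named after its value was seen, CDKN1A in DU145 knockout cells rose by 0.73 ± 0.10 at 12 h (SE, limma adjusted p = 0.00030), and the CCRF-CEM knockout cells had it higher by 1.11 ± 0.27 at 6 h (adjusted p = 0.028). CDKN1A rose in DU145 parent cells by 1.48 ± 0.10 and 1.28 ± 0.10 and in CCRF-CEM parent cells by 2.43 ± 0.27 and 3.19 ± 0.27 (limma adjusted p of 3.9e-05 or less). Its genotype difference, parent minus knockout, was 1.24 ± 0.14 at 6 h and 0.55 ± 0.14 at 12 h in DU145 (limma adjusted p = 0.00018 and 0.069), and 1.32 ± 0.39 and 2.37 ± 0.39 in CCRF-CEM (adjusted p = 0.097 and 0.0021). CDK6, a kinase of the D cyclins, fell by -0.80 ± 0.10 and -0.59 ± 0.10 in CCRF-CEM knockout cells and by -0.89 ± 0.10 and -0.65 ± 0.10 in parent cells (limma adjusted p of 0.0034 or less).

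Of the 3 pocket proteins, none was called in DU145 knockout cells. RB1 was called lower in DU145 parent cells, by -0.66 ± 0.13 and -0.61 ± 0.13, in CCRF-CEM knockout cells by -0.46 ± 0.09 and -0.38 ± 0.09, and in CCRF-CEM parent cells by -0.67 ± 0.09 and -0.38 ± 0.09 (SE, limma adjusted p of 0.020 or less). RBL2 was also lower in CCRF-CEM parent cells at 12 h, at -0.41 ± 0.10 (limma adjusted p = 0.011). Of the 3 DP partners, through which E2F1 to E2F6 bind DNA, the 1 call after camptothecin was TFDP2 in CCRF-CEM parent cells at 12 h, at -0.43 ± 0.09 (limma adjusted p = 0.0043). The MuvB core and its partners, 7 genes, had 0 to 3 called higher and 0 or 1 lower, with LIN37 of the core up by 1.02 ± 0.12 and 0.82 ± 0.12 in DU145 parent cells and by 0.92 ± 0.16 and 1.36 ± 0.16 in CCRF-CEM parent cells (adjusted p of 0.0012 or less). The 11 partners of E2F6 in its Polycomb complex had 0 called in DU145 knockout cells and 1 to 5 elsewhere, RING1 being higher in parent cells by 0.58 ± 0.15 to 0.68 ± 0.15 in DU145 and 0.49 ± 0.11 to 0.69 ± 0.11 in CCRF-CEM. Of 5 genes of E2F protein turnover, CCNF, the F-box protein cyclin F, fell in parent cells of both lines, by -0.74 ± 0.15 and -0.67 ± 0.15 in DU145 and -1.13 ± 0.13 and -0.80 ± 0.13 in CCRF-CEM (limma adjusted p of 0.013 or less). SKP2, the F-box protein of the SCF ligase, was higher in DU145 knockout cells by 0.56 ± 0.10 and 0.74 ± 0.10 (limma adjusted p = 0.0028 and 0.00032).

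Of 6 measured apoptosis targets of E2F1, 0 were called in DU145 knockout cells at either time and 1 was higher in DU145 parent cells at each. In CCRF-CEM 2 and 4 were higher in knockout cells at 6 h and 12 h, and 2 and 2 in parent cells, with 1 lower at 12 h. Of all genes 3.52% and 5.40% were called higher in the CCRF-CEM knockout cells and 7.36% and 9.51% in the parent cells. In CCRF-CEM knockout cells PMAIP1, which encodes the BCL2 antagonist NOXA, rose by 0.31 ± 0.08 and 0.57 ± 0.08 (SE, limma adjusted p = 0.032 and 0.00062), BCL2L11, which encodes BIM, by 0.70 ± 0.15 and 0.63 ± 0.15, and APAF1 by 0.53 ± 0.12 at 12 h (adjusted p between 0.011 and 0.017). In parent cells PMAIP1 rose by 1.68 ± 0.11 and 1.26 ± 0.11 in DU145 and by 1.35 ± 0.08 and 1.02 ± 0.08 in CCRF-CEM (limma adjusted p of 8.3e-06 or less). Its genotype difference, parent minus knockout, was 1.58 ± 0.16 and 1.08 ± 0.16 in DU145 (limma adjusted p = 8.2e-05 and 0.0069) and 1.05 ± 0.11 and 0.45 ± 0.11 in CCRF-CEM (adjusted p = 0.00014 and 0.022) at 6 h and 12 h. Untreated CCRF-CEM knockout cells already had PMAIP1 higher than parent controls, by 0.48 ± 0.08 (limma adjusted p = 0.0039). The part of that starting level in the genotype difference was not tested.

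For the genotype difference in CCRF-CEM at 12 h, 2 of the 38 G1/S targets were called higher in the direction of parent cells and 4 lower (3.63% and 4.28% of all genes), with PCNA at -0.85 ± 0.14, FEN1 at -0.77 ± 0.16 and MCM5 at 0.72 ± 0.16 (SE, limma adjusted p = 0.0022, 0.010 and 0.014). Of the 22 G2/M genes 1 was higher and 8 lower, among them CCNB1 at -1.04 ± 0.16 (adjusted p = 0.0011). Equal housekeeping medians turned these counts to 12 higher and 0 lower and to 3 higher and 0 lower, as that scaling moved the median of all genes in this contrast to 0.47. Of the targets, 6 were higher and 2 lower by the mean of all probe sets. In DU145 1 G1/S target was called at 6 h (MCM7, 0.64 ± 0.14, limma adjusted p = 0.045) and 0 at 12 h. No target was called at 6 h with equal housekeeping medians, by the mean of all probe sets, or without any 1 of the 12 arrays compared except parent replicate 1 at 6 h.

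Untreated DU145 knockout cells, in which E2F8 was lower, also had 13 of the 38 G1/S targets lower and 1 higher than parent controls, and 8 of the 22 G2/M genes higher and 0 lower, where 5.26% of all genes were called lower and 6.10% higher. ORC1, a subunit of the origin recognition complex, differed by -0.77 ± 0.15, and the helicase loading factor MCM10 by -0.67 ± 0.09 (SE, limma adjusted p = 0.0057 and 0.00032). The phosphatase CDC25C differed by 1.07 ± 0.12 and CCNB1 by 0.80 ± 0.11 (adjusted p = 5.6e-05 and 0.00059). The 13 became 6 without parent control replicate 2, 7 without parent control replicate 3 and 8 without knockout control replicate 1, and the 8 became 5 without parent control replicate 3. The 13 became 23 and the 8 became 5 with equal housekeeping medians. The part of these starting levels in the DU145 changes after camptothecin was not tested. In CCRF-CEM 1 of the 38 targets was higher (CCNE2, 0.50 ± 0.09, limma adjusted p = 0.011) and 0 of the 22 G2/M genes were called. No target was higher with equal housekeeping medians or without parent control replicate 1 or knockout control replicate 2.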

How the data were processed

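RNA of 36 samples (12 groups of 3) was measured on Affymetrix arrays. The authors deposited log2 values per probe set, made by RMA in Partek per the submitters' processing notes. Versions and background settings are not given in the sources used here, and precision is limited by the number of arrays. A gene was its brightest probe set carrying a single symbol, by mean over all arrays, which gave 22260 genes from 352859 probe sets, 259224 of them with 1 symbol. Levels of different genes or probe sets were not compared. In each line limma (3.58.1, R 4.3.3) was fitted to 18 arrays in 6 groups with 12 residual degrees of freedom, and comparisons between lines to all 36 arrays with 24. Adjusted p-values are Benjamini-Hochberg over all genes, or all probe sets in the probe-set fit, with calls below 0.05. Averaging a gene's probe sets gave a second summary. The fit was tested on simulated data. Members and gene lists were chosen with earlier results of these data known. All members were named, and of each list at most 4 called genes per comparison, those with the largest absolute change; other list genes are marked as named after their values were seen. The 3 protein-coding genes most like a member were named where its centred group means spanned at least 1 log2 unit. Alternatives were a replicate block, all arrays in 1 fit, a variance trend with robust moderation, cyclic loess, equal housekeeping medians, a filter on level, the mean of all probe sets and leaving out each array. Promoter windows came from RefSeq (GRCh38.p14), which matched 6 of 8 members, with E2F5 and E2F8 unmatched.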

Additional observations from a re-analysis of the deposited data

Results flagged for a closer look

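In CCRF-CEM the camptothecin change at 12 h differed between the genotypes by the interaction test for E2F6 and E2F7. The difference, parent minus knockout, was -0.70 for E2F6 and 0.64 for E2F7 on the log2 scale. Neither was called by the mean of the gene's probe sets. The difference was positive for 15 of 19 E2F7 probe sets and for 5 of 13 E2F6 probe sets. By its brightest probe set E2F7 started higher in knockout cells, at a control mean of 9.44 against 9.03 in parent cells. The part of that starting level in the difference was not tested.

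The change after camptothecin differed between the lines, DU145 minus CCRF-CEM, for E2F2 in knockout and in parent cells at 6 h and 12 h. It was 0.90 in knockout cells at 6 h, 1.26 in knockout cells at 12 h, 0.81 in parent cells at 6 h and 1.11 in parent cells at 12 h. For E2F7 it was 0.96 in knockout cells and 0.51 in parent cells at 12 h, and for the brightest E2F1 probe set 0.69 in parent cells at 6 h. The calls at 6 h, and that of E2F7 in parent cells, ended with equal housekeeping medians and without some single arrays. A replicate block also ended the E2F2 calls at 6 h. E2F2 and E2F7 were also lower in untreated DU145 than in untreated CCRF-CEM cells, and the part of that starting level in the differences was not tested.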

How the results depend on the processing

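Over the alternatives, counts of E2F members called after camptothecin moved from 7 to 11 in DU145 parent cells with the mean of all probe sets and from 5 to 2 in CCRF-CEM knockout cells with equal housekeeping medians. For 12 h against 6 h the count was 0 in DU145 with a replicate block (1 with the other settings that kept all arrays) and 2 in CCRF-CEM with the mean of all probe sets (4 as reported, and 3 to 5 with the other settings that kept all arrays). Equal housekeeping medians changed which members were called there, ending E2F5 and E2F6 and adding E2F1, E2F3 and E2F4 in CCRF-CEM parent cells. Members called for the genotype difference numbered 1 in DU145 with all 36 arrays in 1 fit, and 4 in CCRF-CEM with a variance trend or equal housekeeping medians. Untreated knockout against parent gave 2 in DU145 with all 36 arrays, a variance trend, cyclic loess or the mean of all probe sets, and 0 in CCRF-CEM with the replicate block, all 36 arrays or equal housekeeping medians. The genotype difference between lines gave 3 with equal housekeeping medians. Leaving out 1 array gave 6 to 7 (DU145 knockout), 6 to 8 (DU145 parent), 4 to 5 (CCRF-CEM knockout) and 7 to 8 (CCRF-CEM parent) after camptothecin, 0 to 1 and 1 to 4 for 12 h against 6 h in DU145 and CCRF-CEM, 0 and 1 to 3 for the genotype difference, 1 to 2 and 0 to 1 untreated, and between the lines 4 to 7 for changes, 0 to 1 for the genotype difference and 9 to 11 for levels. Signs turned with the mean of all probe sets for E2F1 (0.58 and 0.69 in DU145 knockout cells, 0.43 and 0.53 in CCRF-CEM parent cells, 0.65 for the CCRF-CEM genotype difference at 12 h, -0.53 between untreated knockouts and 0.80 between knockout changes at 12 h) and for E2F5 between untreated parents (-0.34), and with equal housekeeping medians for E2F4 between untreated parents (0.31). The causes were not tested. Replicate numbers did not pair the arrays: correlations of same-numbered deviations ran from -0.173 to 0.093 in DU145 and -0.049 to 0.159 in CCRF-CEM. With the replicate block 43 of 52 called member results kept their call, that of E2F5 in DU145 knockout cells at 12 h ended (limma adjusted p = 0.066), as did the MCM7 genotype difference in DU145 at 6 h, and probe sets called numbered 48, 55, 22 and 49 in DU145 knockout, DU145 parent, CCRF-CEM knockout and CCRF-CEM parent cells, against 52, 62, 26 and 54 without it. Equal housekeeping medians moved the calls over all genes in CCRF-CEM parent cells at 12 h from 3744 to 6380, of which 93.6% were higher against 56.6%, and for the genotype difference there from 1761 to 4230, with 97.2% against 45.9%. Alternatives for gene lists were chosen after seeing the data.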
